A study of Mus musculus with 10 samples.

Results

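The glutamate and chloride transporters examined here are 7 genes of young cortical projection neurons: the vesicular glutamate transporters Slc17a6 and Slc17a7, the neuronal glutamate uptake carrier Slc1a1, the glutamine carriers Slc38a1 and Slc38a2, and the chloride cotransporters Slc12a2 and Slc12a5. They were chosen by name, with earlier results of these data known. All 7 were found among the 55573 genes of the count table and passed the filter on low counts. RNA was measured by sequencing of polyA RNA in neurons sorted for a yellow fluorescent protein from the cortex of mouse pups on postnatal day 3. The 5 Ctrl libraries came from NexCre/+;Cdk7+/+, R26EYFP/+ pups and the 5 Cdk7_KO libraries from NexCre/+;Cdk7lox/lox, R26EYFP/+ pups, with 1 preparation per pup. All 10 pups thus carried the NexCre driver, a Cre recombinase placed in the Neurod6 locus and active in glutamatergic neurons of the young dorsal forebrain, and 1 copy of the reporter. The design asks how the RNA of projection neurons differs when Cdk7, which encodes a kinase of the general transcription factor TFIIH, is deleted in them.

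Excitatory neurons load glutamate into synaptic vesicles through the transporters VGLUT2 (Slc17a6) and VGLUT1 (Slc17a7), and in the cortex VGLUT2 prevails early in life and VGLUT1 later. Released glutamate is taken up mainly by astrocytes, which return it as glutamine, and neurons import that glutamine through SNAT1 (Slc38a1) and SNAT2 (Slc38a2). Neuronal chloride is set by an importer, NKCC1 (Slc12a2), and an exporter, KCC2 (Slc12a5), and the relative rise of KCC2 after birth is part of the change of GABA from a depolarizing to a hyperpolarizing transmitter.

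Positions are given in GRCm38. Slc17a6 (ENSMUSG00000030500) spans chromosome 7 from 51622006 to 51671119, and Slc17a7 (ENSMUSG00000070570) the same chromosome from 45163949 to 45176142. Slc12a5 (ENSMUSG00000017740) spans chromosome 2 from 164960802 to 164999731, and Slc1a1 (ENSMUSG00000024935) chromosome 19 from 28835049 to 28913960. Slc38a1 (ENSMUSG00000023169) and Slc38a2 (ENSMUSG00000022462) are neighbours on the minus strand of chromosome 15, from 96571418 to 96642913 and from 96687392 to 96699730, with 44478 bases and 0 protein-coding genes between them. Counts are for whole genes, so isoforms of a gene, including those from different starts, cannot be told apart. On the opposite strand of Slc1a1, the protein-coding gene 4430402I18Rik overlaps 31.9% of the exonic bases of Slc1a1, and it was counted at 0.970 to 2.42 CPM.

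Upstream sequences of 3 members are shown because Slc17a7 and Slc12a5 varied most between libraries of the Cdk7_KO group, while Slc17a6, the partner of Slc17a7 in vesicle loading, varied little there. Of the 7 members 5 had an entry in the RefSeq promoter table (GRCm38.p6). Each stretch below runs 5′ to 3′ on the plus strand, up to the RefSeq start and without annotated exon bases. These starts can differ from the gene starts above, and the Slc12a5 stretches were cut before an annotated exon, to 206 and 245 bases. Capitals mark the E-box, CANNTG, the core that basic helix-loop-helix factors such as NEUROD6 and USF1 bind and which reads the same on both strands.
Slc17a6, chr7:51621580-51621829: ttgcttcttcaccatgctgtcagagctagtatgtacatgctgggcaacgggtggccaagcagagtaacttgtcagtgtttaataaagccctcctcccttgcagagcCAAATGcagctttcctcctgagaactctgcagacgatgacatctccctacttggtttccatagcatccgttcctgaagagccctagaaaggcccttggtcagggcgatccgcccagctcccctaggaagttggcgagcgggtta
Slc17a7, chr7:45163671-45163920: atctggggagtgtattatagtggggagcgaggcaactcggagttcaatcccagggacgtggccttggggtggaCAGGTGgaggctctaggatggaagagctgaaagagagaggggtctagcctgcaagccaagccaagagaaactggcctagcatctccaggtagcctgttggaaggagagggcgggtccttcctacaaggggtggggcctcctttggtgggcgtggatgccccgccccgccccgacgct
Slc12a5, upstream start, chr2:164960596-164960801: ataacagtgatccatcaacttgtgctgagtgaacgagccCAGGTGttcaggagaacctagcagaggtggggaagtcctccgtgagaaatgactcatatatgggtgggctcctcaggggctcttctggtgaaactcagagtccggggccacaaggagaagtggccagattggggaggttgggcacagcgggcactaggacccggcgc
Slc12a5, downstream start, chr2:164967738-164967982: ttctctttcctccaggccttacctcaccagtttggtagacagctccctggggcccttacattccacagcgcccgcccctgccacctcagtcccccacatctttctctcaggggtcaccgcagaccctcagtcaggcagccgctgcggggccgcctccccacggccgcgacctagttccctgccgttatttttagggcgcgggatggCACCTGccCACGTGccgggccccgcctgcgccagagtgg
A downstream start of Slc17a6 (chr7:51624387-51624636) has a stretch with 2 E-boxes, which is not printed. The Slc17a6 and Slc17a7 stretches shown and the upstream one of Slc12a5 each held 1 E-box, and the downstream one of Slc12a5 held 2, one of them CACGTG, the form bound by USF1. An E-box was present in 66.2% of the 32851 upstream windows of 250 bases in the table, so these matches are common. The EGR motif GCGNGGGCG, sought on both strands, had 0 matches in the 4 stretches and was present in 4.70% of all windows.

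Library totals lay between 23497621 and 31233466 counts, and the members had between 307 and 8427 counts per library. At each member's mean count over all libraries, counting error was small (1.24% to 4.01% of the mean, as a coefficient of variation). Cdk7 was at 13.2, 10.1, 17.4, 20.3 and 17.2 CPM (counts scaled to the same library total) in Ctrl replicates 1, 3, 4, 5 and 6, and at 7.07, 3.63, 4.38, 5.13 and 5.60 CPM in Cdk7_KO replicates 1 to 5, with no overlap between the groups. All 12 markers fixed for projection neurons were present, with a summed level of 2383 to 3420 CPM in Ctrl and 2716 to 3718 CPM in Cdk7_KO. Markers of other cells were also present: 9 of 9 for radial glia, summing to 706.0 to 1218 CPM in Ctrl and 193.0 to 768.8 CPM in Cdk7_KO, 9 of 9 for astrocytes (618.2 to 1594 and 178.1 to 751.0 CPM), 10 of 10 for endothelial and mural cells (229.8 to 1377 and 56.3 to 315.5 CPM) 12 of 12 for interneurons (103.7 to 465.2 and 32.3 to 329.0 CPM), and 7 of 7 for Cajal-Retzius cells (1350 to 3578 and 744.5 to 2439 CPM), which are themselves glutamatergic. In these lists the medians of the sums were lower in Cdk7_KO with overlap of the groups, and of 12 marker lists in all 1, choroid plexus and ependymal cells, did not overlap (43.3 to 64.3 and 19.9 to 38.6 CPM). The Cajal-Retzius sum was mostly Reln, at a mean of 1932 CPM in Ctrl and 1201 CPM in Cdk7_KO. Calb2 of that list was not lower, at means of 63.5 and 65.0 CPM. Markers at 0 in at least 1 library were Gbx2 of thalamic neurons, Dcn and Lum of fibroblasts, and Ttr, Folr1 and Kl of the choroid plexus. The part of these cells in the members' values was not tested, and the members' values below are given without any adjustment for them. In bulk RNA, fewer cells of a type and less RNA per cell cannot be told apart. Levels of Xist and Ddx3y marked Ctrl replicates 1 and 3 and Cdk7_KO replicates 1 to 3 as male and the other 5 libraries as female. Replicate numbers up to 3 are thus male and those from 4 female, and sex and set of replicates cannot be told apart.

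None of the 7 transporter genes was called changed in Cdk7_KO. Their log2 fold changes lay between -0.16 and 0.33, with 5 positive and 2 negative and a median of 0.10, against a median of 0.01 over all genes. edgeR's quasi-likelihood test called 0 of 7 members at an adjusted p of 0.05 and 0 of 15578 genes in all (0%), so the absence of calls is shared with the whole table. At an unadjusted p under 0.05 it gave 1 member, Slc1a1, against 15.4% of all genes, and in 0 of 7 members the groups did not overlap, against 3.02% of all genes (0.610% higher and 2.41% lower in Cdk7_KO). DESeq2 called 0 of 7 members and 3.24% of the genes it tested, and limma voom 0 of 7 and 0%. With the replicate number as a block, where only numbers 1, 3, 4 and 5 occur in both groups, edgeR called 0 of 7 members and 0.0321% of all genes. In the main edgeR test Cdk7 itself was not called either, at a log2 fold change of -1.54 (unadjusted p = 1.4e-05, adjusted p = 0.161). A missing call is therefore no evidence that a gene is unchanged. Each member's interval below shows the size of difference that these libraries leave possible.

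**Figure D1:**
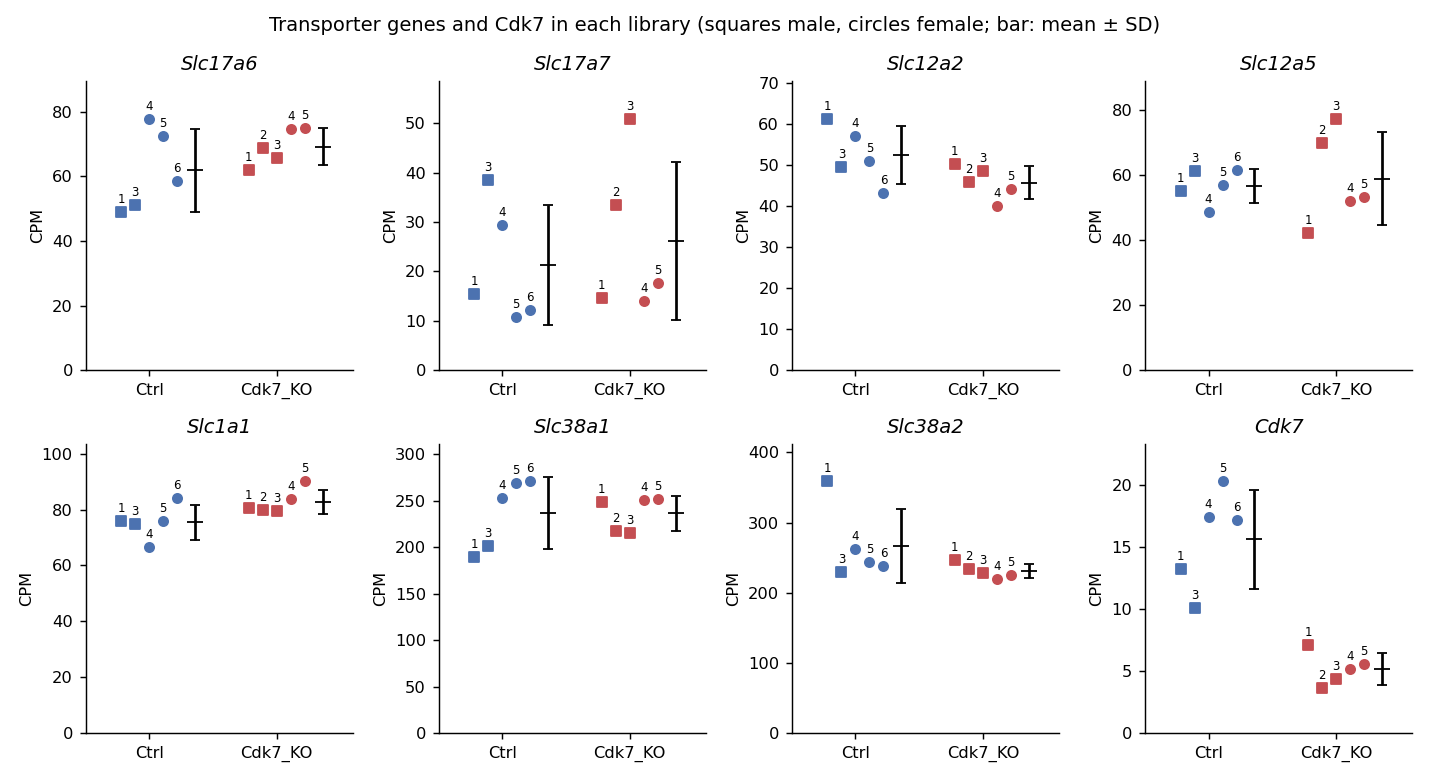
CPM (vertical axis, from 0) of the 7 transporter genes and Cdk7 in each library. Numbers are replicate numbers, squares are male and circles female libraries, and the bar is the mean with its SD (n = 5). Cdk7 separates the groups, while every transporter gene overlaps between them.

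Of the vesicular transporters, Slc17a6 was at 48.9, 51.2, 77.8, 72.6 and 58.7 CPM in Ctrl replicates 1, 3, 4, 5 and 6, and at 61.8, 68.9, 65.6, 74.6 and 74.8 CPM in Cdk7_KO replicates 1 to 5. The lowest 2 values were the male Ctrl libraries, the highest was a female Ctrl library, and the Cdk7_KO values lay inside the Ctrl range. The Ctrl mean was 61.9 ± 12.9 CPM and the Cdk7_KO mean 69.2 ± 5.68 CPM (SD, n = 5). The log2 difference of the groups was 0.22 (SE 0.12, 95% interval -0.05 to 0.49, edgeR adjusted p = 0.420), which in linear terms allows from 0.967 to 1.40 times the Ctrl level. With sex as a factor beside genotype it was 0.30 (edgeR adjusted p = 0.0512), the smallest adjusted p of any member under any of 20 alternatives, in a fit that called 4.70% of all genes. In the male libraries alone the log2 fold change was 0.40, and in the female libraries 0.20. The genes most like it over the libraries were Gprasp1, which encodes a protein that sorts G protein-coupled receptors, Focad and Mettl26 (r of 0.93, 0.91 and 0.91, rho of 0.92, 0.88 and 0.84). Without Ctrl replicates 1 and 3 their r was 0.79, 0.73 and 0.80.

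Slc17a7 varied more between pups than between genotypes. It was at 15.5, 38.6, 29.5, 10.9 and 12.3 CPM in Ctrl replicates 1, 3, 4, 5 and 6, and at 14.7, 33.4, 50.9, 13.9 and 17.7 CPM in Cdk7_KO replicates 1 to 5. Ctrl replicates 3 and 4 and Cdk7_KO replicates 2 and 3 were at 29.5 CPM or more, and the other 6 libraries at 17.7 CPM or less, so that both groups held high and low libraries. The highest library was 4.69 times the lowest. Within groups the coefficient of variation was 56.9% in Ctrl and 61.1% in Cdk7_KO, larger than for 98.2% and 99.0% of the 11068 genes with a mean of at least 5 CPM, whose medians were 11.8% and 11.2%. Counting error alone would give 4.01% at its mean count. The log2 fold change of 0.33 therefore had a wide interval, from -0.58 to 1.25 (SE 0.42, edgeR adjusted p = 0.755), or 0.671 to 2.37 times the Ctrl level. Without Cdk7_KO replicate 3 it was -0.05, and without Ctrl replicate 3 it was 0.67, so that its size and sign rest on single libraries. In the female libraries alone it was -0.05, and in the male libraries 0.29.

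The 3 genes whose levels over the 10 libraries were most like those of Slc17a7, out of 10666 compared, were Nts, which encodes the neuropeptide neurotensin, Nefl, the light chain of neurofilaments, and Taf13, a subunit of the general transcription factor TFIID. Pearson's r of log2 CPM was 0.96, 0.95 and 0.94 and Spearman's rho 0.90, 0.93 and 0.96. These values describe genes picked for their likeness, so no test is attached. Without Ctrl replicate 3 and Cdk7_KO replicate 3, the libraries farthest from the median of Slc17a7, r was 0.93, 0.94 and 0.99. Nts was at 7.06, 41.5, 19.0, 6.19 and 5.77 CPM in the Ctrl libraries and at 4.50, 35.3, 40.1, 5.72 and 9.50 CPM in the Cdk7_KO libraries, in the order used above. The same 4 libraries that were high in Slc17a7 were the highest 4 in Nts, Nefl and Taf13. Nefl ranged from 13.5 to 39.7 CPM, while Taf13 ranged only from 17.9 to 24.2 CPM. In the fit for genotype Nts had a log2 fold change of 0.29 (edgeR adjusted p = 0.886), and Nefl and Taf13 had 0.06 and 0.10 (adjusted p = 0.950 and 0.707).

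**Figure D2:**
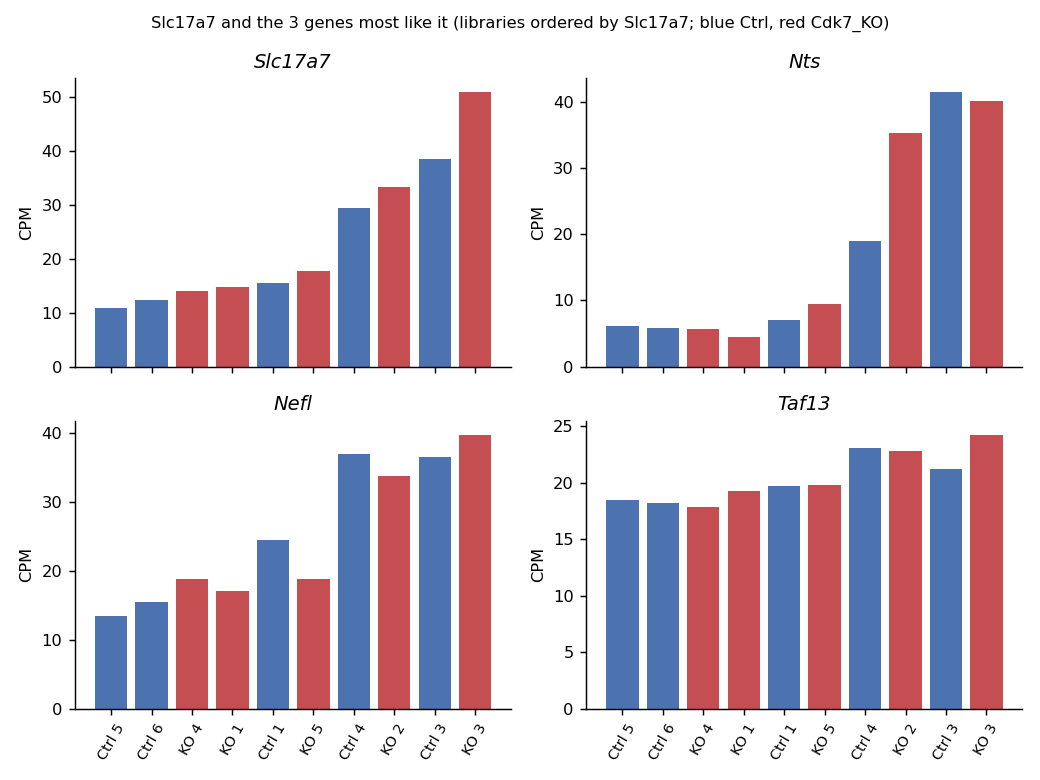
CPM (vertical axes, from 0) of Slc17a7 and of the 3 genes most like it, with the 10 libraries ordered by Slc17a7 and coloured by genotype (blue Ctrl, red Cdk7_KO, written KO). The 4 libraries on the right, 2 of each genotype, are highest in all 4 genes.

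Per kilobase of merged exons, Slc17a6 stood above Slc17a7 in 10 of 10 libraries, and with the longest transcript as length in 8 of 10, all but the 2 libraries numbered replicate 3. The ratio of Slc17a7 to Slc17a6 was 0.317, 0.754, 0.379, 0.150 and 0.209 in Ctrl replicates 1, 3, 4, 5 and 6, and 0.238, 0.485, 0.777, 0.187 and 0.236 in Cdk7_KO replicates 1 to 5. Replicate 3 had the highest ratio in both groups, and the groups covered nearly the same range. On the log2 scale the mean ratio was -1.69 ± 0.89 in Ctrl and -1.60 ± 0.86 in Cdk7_KO (SD, n = 5), a difference of 0.10 that is small beside the SD. This ratio, like those below, does not depend on how libraries are scaled to each other, and it is given without a test.

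Slc1a1 encodes EAAC1, the glutamate and cysteine carrier of neuronal cell bodies and dendrites. It was at 76.0, 74.8, 66.6, 76.0 and 84.2 CPM in Ctrl replicates 1, 3, 4, 5 and 6, and at 80.4, 80.0, 79.5, 83.7 and 90.1 CPM in Cdk7_KO replicates 1 to 5. Each Cdk7_KO library was above 4 of the 5 Ctrl libraries, and Ctrl replicate 6 lay among the Cdk7_KO values. The Ctrl mean was 75.5 ± 6.25 CPM and the Cdk7_KO mean 82.8 ± 4.42 CPM (SD, n = 5). The log2 difference of the groups was 0.18 (SE 0.08, 95% interval 0.01 to 0.36), with an unadjusted p of 0.0388 and an adjusted p of 0.295 in edgeR's quasi-likelihood test, so it did not pass the correction. It was positive under all 20 alternatives, between 0.10 and 0.29, with adjusted p-values (edgeR, limma or DESeq2) from 0.157 to 0.794. Beside it, the summed projection neuron markers had medians of 2677 CPM in Ctrl and 3277 CPM in Cdk7_KO, and their part in the difference was not tested. The overlapping antisense gene 4430402I18Rik had a log2 fold change of -0.13 (edgeR adjusted p = 0.899), at 24 to 60 counts per library where Slc1a1 had 1650 to 2337. Among the 3 genes most like Slc1a1 over the libraries were Mturn and Gsto1 (r of 0.96 and 0.96, rho of 0.90 and 0.90). Leaving out Ctrl replicate 4 and Cdk7_KO replicate 5 gave r of 0.91 and 0.87.

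The glutamine carriers were the most abundant members. Slc38a1 (SNAT1) was at 189.3, 201.1, 252.8, 268.8 and 271.0 CPM in Ctrl replicates 1, 3, 4, 5 and 6, and at 248.9, 217.6, 215.1, 250.6 and 252.3 CPM in Cdk7_KO replicates 1 to 5. The lowest 2 libraries were the male Ctrl ones and the highest 2 were female Ctrl ones, with the Cdk7_KO values between them. The group means were nearly equal, 236.6 ± 38.7 CPM for Ctrl and 236.9 ± 18.8 CPM for Cdk7_KO (SD, n = 5). The log2 difference of the groups was 0.06 (SE 0.11, 95% interval -0.18 to 0.29, edgeR adjusted p = 0.852), or 0.882 to 1.23 times the Ctrl level. It was 0.23 in the male libraries alone, 0.02 in the female ones and 0.00 when library totals were used without TMM factors. The genes most like it were Zfp866, Rev3l, the catalytic subunit of a translesion DNA polymerase, and Zc3h6 (r of 0.99, 0.98 and 0.97, rho of 0.96, 0.95 and 0.92). Without Ctrl replicates 1 and 3 their r was 0.98, 0.95 and 0.93.

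Slc38a2 (SNAT2), which many cell types use for neutral amino acid uptake, was at 358.6, 229.5, 262.4, 243.6 and 238.5 CPM in Ctrl replicates 1, 3, 4, 5 and 6, and at 246.9, 233.9, 227.7, 220.1 and 225.3 CPM in Cdk7_KO replicates 1 to 5. Ctrl replicate 1 stood apart from all others, and the remaining 9 libraries lay between 220.1 and 262.4 CPM. The log2 difference of the groups was -0.16 (SE 0.11, 95% interval -0.40 to 0.08, edgeR adjusted p = 0.533), and without Ctrl replicate 1 it was -0.02 (edgeR adjusted p = 0.921). Ctrl replicate 1 was also the library with the most RNA of endothelial and mural cell markers, at 1377 CPM. The next highest in these markers, Ctrl replicate 3 at 569.4 CPM, had the lowest Slc38a2 level of the Ctrl libraries. The part of these cells in the Slc38a2 levels was not tested. The genes most like Slc38a2 were Sept10, Shroom4 and Slc10a7 (r of 0.93, 0.92 and 0.90, rho of 0.77, 0.41 and 0.87). Without Ctrl replicates 1 and 4 their r was 0.56, 0.22 and 0.69, so that the likeness of Shroom4 rested on those libraries. Although Slc38a1 and Slc38a2 are neighbours, they did not vary alike (r of -0.46, rho of -0.01 over 10 libraries), and Slc38a2 ranked 8713 of 10666 genes in likeness to Slc38a1. The ratio of Slc38a1 to Slc38a2 per kilobase of merged exons was between 0.271 and 0.583 in Ctrl and between 0.477 and 0.584 in Cdk7_KO. Its mean log2 value was -1.13 ± 0.45 in Ctrl and -0.93 ± 0.14 in Cdk7_KO (SD, n = 5), with Ctrl replicate 1 lowest.

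Of the chloride cotransporters, the importer gene Slc12a2 (NKCC1) was at 61.3, 49.6, 57.0, 51.1 and 43.2 CPM in Ctrl replicates 1, 3, 4, 5 and 6, and at 50.2, 45.8, 48.5, 39.9 and 44.1 CPM in Cdk7_KO replicates 1 to 5. The highest 2 values were Ctrl replicates 1 and 4, the lowest was Cdk7_KO replicate 4, and Ctrl replicate 6 lay among the low ones. The Ctrl mean was 52.4 ± 6.99 CPM and the Cdk7_KO mean 45.7 ± 4.01 CPM (SD, n = 5). The log2 difference of the groups was -0.15 (SE 0.09, 95% interval -0.34 to 0.05, edgeR adjusted p = 0.477), or 0.788 to 1.04 times the Ctrl level, and it was negative under all 20 alternatives, between -0.20 and -0.08. Slc12a2 (ENSMUSG00000024597) spans chromosome 18 from 57878678 to 57946821 on the plus strand. NKCC1 is also made by progenitors, glia and epithelia. Ctrl replicate 6 and Cdk7_KO replicate 4, the lowest libraries of their groups in Slc12a2, were also the lowest of their groups in summed radial glia markers (706.0 and 193.0 CPM) and astrocyte markers (618.2 and 178.1 CPM). These 2 libraries were also the highest of their groups in summed projection neuron markers (3420 and 3718 CPM). Ctrl replicate 3 had the highest sums of radial glia and astrocyte markers (1218 and 1594 CPM). Its Slc12a2 level, 49.6 CPM, was below that of every Ctrl library but replicate 6. The part of any of these cells in the values of Slc12a2 was not tested. The genes most like it were Ankrd13a, Fermt2, which encodes the integrin adaptor kindlin-2, and Rbms2 (r of 0.96, 0.95 and 0.93, rho of 0.98, 0.94 and 0.85). Without Ctrl replicate 1 and Cdk7_KO replicate 4 their r was 0.90, 0.85 and 0.82.

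The exporter gene Slc12a5 (KCC2) was at 55.2, 61.4, 48.9, 57.1 and 61.5 CPM in Ctrl replicates 1, 3, 4, 5 and 6, and at 42.3, 69.9, 77.4, 52.1 and 53.4 CPM in Cdk7_KO replicates 1 to 5. The Cdk7_KO group held both the lowest library, replicate 1, and the highest 2, replicates 2 and 3, so that its spread enclosed all Ctrl values. The coefficient of variation was 24.2% in Cdk7_KO and 9.18% in Ctrl. The means were 56.8 ± 5.22 CPM and 59.0 ± 14.3 CPM in Ctrl and Cdk7_KO (SD, n = 5), and the log2 difference of the groups was 0.10 (SE 0.14, 95% interval -0.20 to 0.41, edgeR adjusted p = 0.780), or 0.868 to 1.33 times the Ctrl level. Without Cdk7_KO replicate 3 it was -0.01, and without Cdk7_KO replicate 1 it was 0.20. The genes most like it were Ankrd45, Gnao1, which encodes the G protein subunit most abundant in brain, and the pannexin gene Panx2 (r of 0.93, 0.91 and 0.90, rho of 0.78, 0.92 and 0.89). Without Cdk7_KO replicates 1 and 3 their r was 0.79, 0.77 and 0.93.

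Whether the exporter stood above the importer depended on the length used: the ratio was above 1 in 10 of 10 libraries per kilobase of merged exons, and in 7 of 10 with the longest transcript, where it ranged from 0.912 to 1.73. Per kilobase of merged exons, Slc12a5 over Slc12a2 was 1.32, 1.81, 1.26, 1.64 and 2.09 in Ctrl replicates 1, 3, 4, 5 and 6, and 1.24, 2.24, 2.34, 1.91 and 1.77 in Cdk7_KO replicates 1 to 5. Cdk7_KO replicate 1 had the lowest ratio of all 10 libraries, and Cdk7_KO replicates 2 and 3 the highest. The mean log2 ratio was 0.67 ± 0.31 in Ctrl and 0.89 ± 0.37 in Cdk7_KO (SD, n = 5), and the difference of 0.22 was smaller than either SD.

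**Figure D3:**
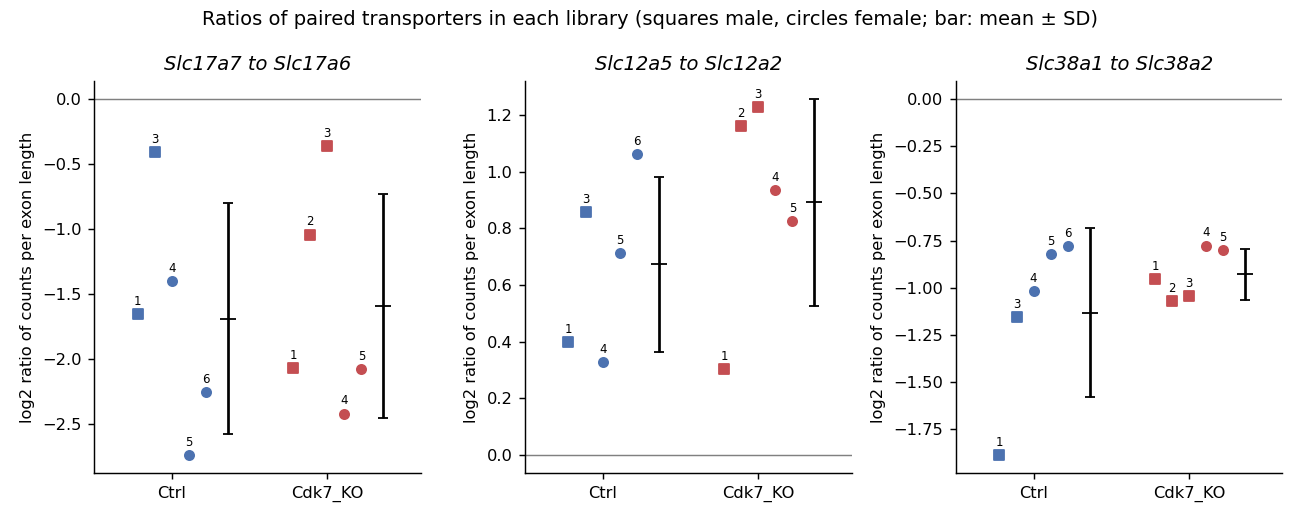
The log2 ratio of counts per exon length (vertical axis) for the 3 pairs of transporters in each library. Numbers are replicate numbers, squares are male and circles female libraries, the grey line marks equal levels per merged exon length, and the bar is the mean with its SD (n = 5). The groups overlap in all 3 ratios, and Ctrl replicate 1 stands apart in the ratio of Slc38a1 to Slc38a2.

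Levels of different genes were compared as CPM per kilobase of merged exons (RPKM). Slc38a2 was highest in both groups, at 30.2 ± 5.98 RPKM in Ctrl and 26.1 ± 1.16 RPKM in Cdk7_KO (SD, n = 5), and stood above Slc38a1 (13.7 ± 2.24 and 13.7 ± 1.09 RPKM) with no overlap. Slc17a6 came next, at 11.5 ± 2.39 and 12.8 ± 1.05 RPKM, and its range overlapped that of Slc38a1 in both groups. Slc1a1 followed at 9.15 ± 0.76 and 10.0 ± 0.54 RPKM, and Slc12a5 at 7.63 ± 0.70 and 7.93 ± 1.92 RPKM. Slc17a6 and Slc1a1 overlapped in Ctrl and not in Cdk7_KO, and Slc1a1 and Slc12a5 overlapped in both. Slc12a2 (4.80 ± 0.64 and 4.19 ± 0.37 RPKM) and Slc17a7 (3.96 ± 2.25 and 4.84 ± 2.96 RPKM) were lowest, overlapped, and changed places between the groups. With the length of the longest transcript in place of merged exons, Slc1a1 stood above Slc17a6 in both groups, and the other ranks were the same.

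**Figure D4:**
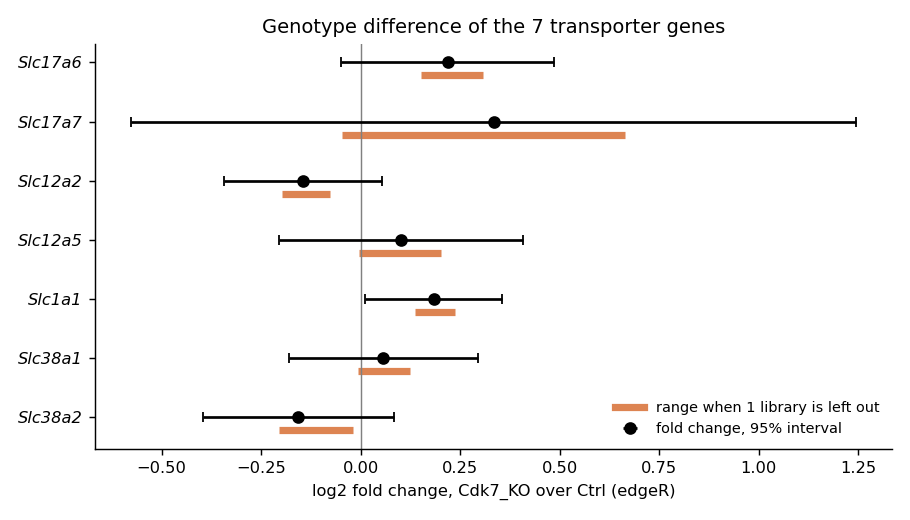
Log2 fold change of Cdk7_KO over Ctrl from edgeR (horizontal axis) for the 7 transporter genes. Points with bars are the fold change and its 95% interval, and orange bars the range of fold changes when each library in turn is left out. The interval of Slc17a7 is the widest, from -0.58 to 1.25, and only that of Slc1a1 (0.01 to 0.36) does not include 0.

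Around the members, 57 further genes of glutamate and chloride handling were listed, of which 54 were measured well enough to test. edgeR called 0 of them, with 3 higher and 12 lower at an unadjusted p under 0.05, against 4.90% and 10.5% of all genes. Their median log2 fold change was -0.12, with 21 positive and 33 negative, against 8173 and 7405 of all genes. The groups did not overlap in 2 of the 54, Slc1a4 and Slc12a7, both lower in Cdk7_KO, as in 2.41% of all genes.

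The other carriers of the Slc1 family, not all of them glial, were negative (5 of 5, median -0.48), while Slc1a1 was positive. The astrocyte glutamate transporter genes Slc1a3 (GLAST) and Slc1a2 (GLT-1) averaged 332.4 ± 79.7 and 169.5 ± 39.7 CPM for Ctrl and 155.4 ± 82.4 and 91.9 ± 37.3 CPM for Cdk7_KO (SD, n = 5), with log2 fold changes of -1.05 and -0.84 (edgeR adjusted p = 0.198 and 0.179). Slc1a4, a carrier of serine and other neutral amino acids, ranged from 150.9 to 224.2 CPM among Ctrl libraries and from 107.3 to 142.9 CPM among Cdk7_KO libraries, and its log2 fold change was -0.48 (SE 0.11, edgeR adjusted p = 0.161). DESeq2 called Slc1a4 (adjusted p = 0.0133), and edgeR with sex in the model called all 3 (adjusted p = 0.0180 for Slc1a2, 0.0221 for Slc1a3 and 0.0195 for Slc1a4). Slc1a2 and Slc1a3 are themselves among the astrocyte and radial glia markers whose sums tended lower in Cdk7_KO, and the difference between these genes and Slc1a1 was not tested.

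Of the other Slc38 carriers 7 of 8 could be tested, with 5 negative and a median of -0.17. The glial glutamine exporter gene Slc38a3 was at 62.8 ± 24.0 CPM (Ctrl) against 26.4 ± 11.6 CPM (Cdk7_KO), as mean ± SD with n = 5, and its log2 fold change was -1.21 (SE 0.32, edgeR adjusted p = 0.163, DESeq2 adjusted p = 0.0419). Slc38a10 and Slc38a7 were near even, at 0.03 and -0.06 (edgeR adjusted p = 0.850 and 0.824). Of the enzymes, Glul, the glutamine synthetase of astrocytes, was at 292.2 ± 41.3 CPM (Ctrl) against 191.2 ± 45.5 CPM (Cdk7_KO), as mean ± SD with n = 5, and its log2 fold change was -0.56 (edgeR adjusted p = 0.161, DESeq2 adjusted p = 0.0124). Glutamate dehydrogenase (Glud1) was at -0.24 and mitochondrial aspartate aminotransferase (Got2) at 0.09 (edgeR adjusted p = 0.192 and 0.541). With sex in the model edgeR called Slc38a3, Glul and Glud1 (adjusted p = 0.0083, 0.0136 and 0.0180).

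Among the other vesicular carriers, 5 of 5 were negative. Slc32a1, the vesicular GABA transporter of interneurons, was at 14.5 ± 6.97 CPM (Ctrl) against 7.98 ± 5.68 CPM (Cdk7_KO), as mean ± SD with n = 5, and its log2 fold change was -0.81 (edgeR adjusted p = 0.468), and interneuron markers, of which it is one, had median sums of 283.7 and 144.6 CPM. In the male libraries alone its log2 fold change was 0.14 and in the female ones -1.59, with neither called. Slc17a8 (VGLUT3), with only 5 to 119 counts per library, was at -1.08 (95% interval -2.35 to 0.20, edgeR adjusted p = 0.407). The lysosomal sialic acid carrier gene Slc17a5 was at -0.02 (edgeR adjusted p = 0.946).

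Of the other cation-chloride cotransporters 5 of 7 could be tested and 4 were negative. Slc12a4 (KCC1), a housekeeping form, had a log2 fold change of -0.41 (edgeR adjusted p = 0.173, DESeq2 adjusted p = 0.0438, and edgeR adjusted p = 0.0385 with sex in the model). Slc12a7 (KCC4), named because its groups did not overlap, ranged from 22.6 to 28.8 CPM among Ctrl libraries and from 13.8 to 19.5 CPM among Cdk7_KO libraries. Its log2 fold change was -0.51 (SE 0.11, edgeR unadjusted p = 0.00036, adjusted p = 0.161), and its results under the other models are not given here. Slc12a9 was at -0.18 (edgeR adjusted p = 0.442). The WNK kinases, which switch NKCC1 on and the KCC exporters off through the kinases SPAK and OSR1, were at -0.15 for Wnk1, 0.13 for Wnk2 and 0.19 for Wnk3 (edgeR adjusted p = 0.269, 0.419 and 0.378).

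Regulators and partners of KCC2 had a median of 0.10, and 5 of 8 were positive. At an unadjusted p under 0.05 edgeR gave 2 of these 8 higher and 0 lower, against 4.90% and 10.5% of all genes. Ntrk2, the receptor of BDNF, and Ckb, brain creatine kinase, which are named for their abundance, had log2 fold changes of -0.19 and -0.17 (edgeR adjusted p = 0.511 and 0.429). The EAAC1 partners Arl6ip5 and Rtn2 were at 0.12 and 0.13 (edgeR adjusted p = 0.478 and 0.325). The chloride and bicarbonate transporter genes Clcn3, Slc4a3 and Slc4a8 were at 0.02, 0.08 and 0.12 (edgeR adjusted p = 0.920, 0.820 and 0.659).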

How the data were processed

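RNA of sorted cells from 10 pups, 5 Ctrl and 5 Cdk7_KO, was sequenced. The deposited values are raw counts of reads per gene. STAR, Salmon and the GRCm38 build are named in the submitters' processing notes. Not given in the sources used here are their versions and roles, the annotation and the strand setting, so a gene and its antisense partner may share reads. Per the labels' protocols, polyA RNA and a directional kit were used.

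Library names tied every column to 1 sample, and 0 columns were left over. Of 55573 gene IDs, 55480 matched GENCODE M21, which gave coordinates and lengths. A symbol with several IDs was represented by the most abundant one. Between any 2 libraries the mean chi-square over genes was at least 11.2, so no library was a copy. The test was edgeR 4.0.16 in R 4.3.3: filterByExpr (minimum count 10), TMM, estimateDisp, glmQLFit and glmQLFTest with genotype alone, and Benjamini-Hochberg adjustment over 15578 genes at 0.05. Standard errors came from the F statistic. CPM used library totals. The tests were tried on simulated counts.

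DESeq2 1.42.0, limma 3.58.1 (voom), RLE factors, library totals, other filters, leaving out single libraries, a block for the replicate number, and sex (from Xist and Ddx3y) were alternatives. The sex by genotype term was added after the data were seen. Named genes were the members, the 3 most abundant genes of each of 9 related lists, and for each member the 3 genes with the highest Pearson correlation of log2 CPM (prior count 2) among genes with a mean of at least 5 CPM, leaving out predicted, Y-linked and X-inactivation genes. Of the genes this rule names, 3 are not reported here. The members and lists were chosen with earlier results of these data known.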

Additional observations from a re-analysis of the deposited data

Results flagged for a closer look

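In 94 groups of 5 libraries, a library was looked for whose distance to its nearest neighbour took up most of the group's range, which chance gives in about 1 of 20 groups. The share of groups with such a library was below that. Slc38a2 in Ctrl replicate 1 stood apart, at 358.6 CPM against 262.4 CPM in the next Ctrl library. The summed radial glia markers of Ctrl replicate 6 were lowest among the Ctrl libraries, at 706.0 CPM against 1091 CPM in the next Ctrl library.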

How the results depend on the processing

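For the 7 members, 0 were called under any of the 20 alternatives. Slc17a6, Slc12a2, Slc1a1 and Slc38a2 kept their sign under all 20. Slc17a7 was at -0.0465 in the female libraries alone. When each library was left out in turn, the log2 fold change ranged from 0.15 to 0.31 for Slc17a6, -0.0473 to 0.67 for Slc17a7, -0.20 to -0.08 for Slc12a2, -0.0050 to 0.20 for Slc12a5, 0.14 to 0.24 for Slc1a1, -0.0069 to 0.12 for Slc38a1 and -0.21 to -0.02 for Slc38a2. The sex by genotype term was called for 0 of 7 members and 0% of all genes (smallest adjusted p of a member 0.673, Slc38a1).

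Over all genes, against 0 in the main test, DESeq2 called 39 higher and 522 lower (561), sex as a factor 46 and 686 (732), the replicate block 5, all lower, and no filter 1, Cdk7, lower. Leaving out each library gave 0 to 5 calls, of which 0 to 1 higher and 0 to 4 lower. Of the 57 related genes listed, 5 were called with DESeq2 and 9 with sex as a factor. These fits called 3.24% and 4.70% of all the genes they tested. The cause was not tested. The replicate numbers 1, 3, 4 and 5 are shared by the groups, and the deviations of same-numbered libraries correlated at -0.23, 0.48, 0.03 and 0.24, and 1 of the 4 Ctrl libraries was closest to its own number, so the numbers were not taken to pair the libraries. With the replicate block Slc17a7 was at 0.06 and Slc38a1 at 0.16, and 0 members were called. Ctrl replicate 6 and Cdk7_KO replicate 2 are alone in their numbers, so that fit takes no genotype difference from them.

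Of the related genes named, 7 changed sign under at least 1 alternative, and apart from Slc32a1 their main values lay between -0.02 and 0.12. With library totals Slc38a10 was at -0.0199 and Clcn3 at -0.0337, and with a mean of at least 1 CPM Clcn3 at -0.00062. The longest transcript as length for the ratios was chosen after seeing the data and leaves the difference of their logs as it was. In the male libraries Slc32a1, at -0.81 in the main test and -1.59 in the female libraries, was at 0.14, Arl6ip5 at -0.0750, Slc38a10 at -0.0952, Got2 at -0.0500, Clcn3 at -0.0454 and Slc4a3 at -0.0097. With the replicate block Slc17a5 was at 0.0027 and Slc4a3 at -0.0392. With each library left out in turn, Slc4a3 ranged from -0.0045 to 0.17 (lowest without Cdk7_KO replicate 3) and Clcn3 from -0.0363 to 0.0491 (lowest without Cdk7_KO replicate 4).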
